A study of Mus musculus with 9 samples.

Results

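The transcription factor genes that set the fate of monocytes and macrophages were followed as a group of 9 across 3 sorted populations of wound myeloid cells. They were Spi1, Cebpb, Maf, Nr4a1, Nr4a2, Nr4a3, Klf2, Klf4 and Pou2f2. The list was made from what the factors are known to do, with earlier results of these data already known. All 9 were on the array, among 22180 genes measured by a probe set with a single gene symbol, and each gene was read from its brightest probe set over the 9 arrays. The cells came from the plantar hindpaw of male C57BL/6J mice, 8 weeks old, taken 24 h after an incision, with no unwounded paw among the samples. CD11b+Ly6G- cells were separated by surface Ly6C into Ly6C low, Ly6C medium and Ly6C high gates, 3 arrays each, all on a single day. The labels leave unsaid whether samples of a gate came from separate animals. A p-value therefore sets a difference between gates only against the spread of these samples within a gate. That spread may be technical.

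Monocytes that enter a wound carry high surface Ly6C and can lose it as they turn into macrophages, while resident macrophages and dendritic cells carry little. PU.1, encoded by Spi1, opens the myeloid programme and C/EBPβ, encoded by Cebpb, acts with it in monocytes and in inflammatory macrophages. MAF, the product of Maf, restrains division and promotes the genes of mature tissue macrophages. The orphan nuclear receptors NR4A1 to NR4A3 are switched on within minutes of a stimulus, and NR4A1 is required for the Ly6C low monocytes of blood. The Krüppel-like factors KLF2 and KLF4 dampen inflammatory activation, and KLF4 also promotes monocyte formation. Pou2f2 encodes OCT2, best known from B cells and also present in macrophages.

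Each value below is a log2 intensity as deposited, a mean over the 3 arrays of a gate is given with its SD, and a gene was called where its Benjamini-Hochberg adjusted p from limma, over all 22180 genes, was under 0.05. The array medians lay between 3.93 and 4.10. The gates carried myeloid transcripts throughout. Lyz2, which encodes a lysozyme, averaged 12.25, 12.15 and 12.29 in Ly6C low, medium and high, and Itgam, the gene of CD11b, 10.58, 10.90 and 11.02. Ly6g was dim, at 3.58, 3.06 and 3.02. The summed linear intensity of 10 neutrophil markers, Ly6g among them, was 637, 1010 and 2816 on low replicates 1, 2 and 3. It was 974, 1213 and 2320 on the medium arrays and 726, 1048 and 1245 on the high arrays, highest on replicate 3 in every gate. Between low and high, Retnlg was called higher, and Csf3r and Mmp8 lower. Ly6c2, the transcript of the sorted protein, stood at 8.33, 11.22 and 12.27. The gates also differed in markers of particular cell types. The summed linear intensity of 8 resident macrophage markers ran from 9992 to 12745 on the Ly6C low arrays, 3147 to 5368 on the medium arrays and 1663 to 2581 on the high arrays. All 8 were called higher in low than in high, where 3.35% of all genes were higher and 2.32% lower. For 9 dendritic cell markers, of which 5 were higher in low than in high and 0 lower, the sums were 2076 to 2884, 443 to 505 and 299 to 424. For 10 fibroblast markers, all lower in low than in high, they were 428 to 456, 777 to 799 and 3203 to 7182. For 9 markers of classical monocytes they were 8545 to 11155, 15332 to 16966 and 20488 to 21671. For 10 markers of nonclassical monocytes, the Ly6C low monocytes of blood, they were 3581 to 4081, 3227 to 3678 and 2428 to 2816. Of these 10, 3 were higher in low than in high (Cx3cr1, Spn and Cd36) and 3 lower (Ace, Treml4 and Itgal). In a bulk sample, fewer cells of a type and less RNA per cell cannot be told apart.

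Of the 9 factors, 4 differed between Ly6C low and Ly6C high cells. Maf and Klf2 were higher in Ly6C low, by 2.58-fold and 1.76-fold, and Cebpb and Nr4a2 were lower, by 1.57-fold and 2.12-fold. The other 5, Spi1, Nr4a1, Nr4a3, Klf4 and Pou2f2, did not pass. The 4 called stand beside 5.67% of all genes tested, of which 3.35% were higher and 2.32% lower, and beside 13.8% of the 5907 genes with a mean log2 intensity of at least 6, a level that 8 of the 9 factors reached. The median log2 difference of the 9 was -0.09, against 0.01 over all genes. Because the factors were chosen with earlier results of these data known, these shares are no test of the list. Between Ly6C low and medium, Maf and Klf2 were higher and 0 factors were lower, beside 1.93% of all genes called (1.38% higher and 0.541% lower) and 4.66% of those with a mean of at least 6. Between Ly6C medium and high, limma called 0 of the 9, against 0.239% of all genes, and 6 had an unadjusted p under 0.05, against 7.53% of all genes. The comparisons share arrays in pairs. Over the 3 gates together, the moderated F test called Cebpb, Maf, Nr4a2 and Klf2, against 4% of all genes and 9.77% of those with a mean of at least 6.

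Arrays of a pair of gates that did not overlap were common among all genes. Low and high did not overlap for 5 of the 9 factors, against 20.1% of all genes and 38.5% of those with a mean of at least 6. Low and medium did not overlap for 6 of the 9, against 16.8% and 31.5%. Medium and high did not overlap for 6 of the 9, against 10.7% and 15.4%. Of these 6, Maf was higher in medium, against 5.77% of all genes, and Cebpb, Nr4a1, Nr4a2, Nr4a3 and Pou2f2 were lower in medium on every array, against 4.93%.

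**Figure D1:**
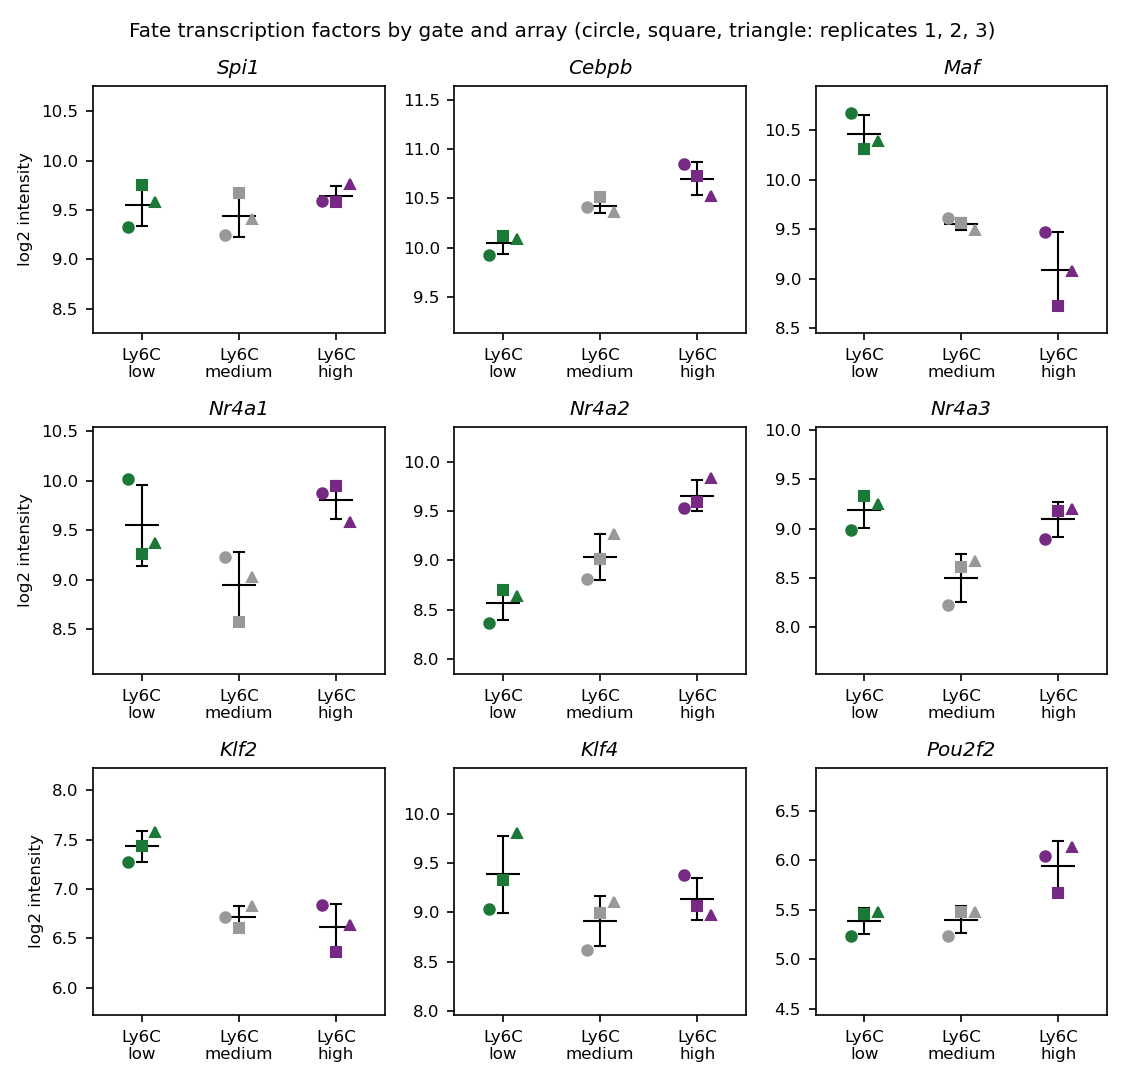
The log2 intensity of each of the 9 factor genes is plotted for every array, by gate, with the mean and SD of 3 arrays as a bar, and every panel spans the same range of log2 units. Maf and Klf2 sit highest in Ly6C low, Cebpb and Nr4a2 sit highest in Ly6C high, and Nr4a1 and Nr4a3 are lowest in Ly6C medium.

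Spi1, whose level in a progenitor helps decide between macrophage and neutrophil fate, had nearly the same signal in every gate. It was at 9.32, 9.76 and 9.58 on the Ly6C low arrays, 9.25, 9.67 and 9.40 on the medium arrays and 9.59, 9.58 and 9.76 on the high arrays. The 3 gates overlapped. The log2 difference was -0.09 between low and high (95% interval -0.42 to 0.24, adjusted p = 0.854) and 0.11 between low and medium (-0.22 to 0.44, adjusted p = 0.804). Between medium and high it was -0.20 (-0.53 to 0.13, adjusted p = 0.791). Its sign between low and high turned with quantile normalization repeated, at 0.02, and without low replicate 1, at 0.03. These intervals leave out a 2-fold difference in either direction. Its relatives Spib, a factor of plasmacytoid dendritic cells and B cells, and Spic, a factor of red pulp macrophages in the spleen, were not called in any comparison. Spib was dim in every gate (3.41, 3.25 and 3.26 in low, medium and high), and Spic averaged 7.61, 7.99 and 7.49.

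Of 14 genes that PU.1 is known to activate, 0 were higher in Ly6C low than in Ly6C high and 3 were lower, beside 5.67% of all genes called and 13.8% of those with a mean of at least 6. Their median log2 difference was -0.18, against 0.01 over all genes. Csf1r, the receptor for the macrophage growth factor CSF1, averaged 10.82 in low, 10.51 in medium and 10.57 in high (adjusted p = 0.389 for low versus high). Those lower in low were Csf3r, the receptor of granulocyte colony-stimulating factor (log2 difference -1.13, adjusted p = 0.0269), Mpeg1, which encodes the pore-forming protein perforin-2 (-0.97, adjusted p = 0.00141), and the Fc receptor gene Fcgr1 (-0.71, adjusted p = 0.0186). When single arrays were left out, Csf3r missed the threshold in 5 of 9 fits (adjusted p at most 0.0977, with low replicate 1 absent) and Fcgr1 in 3 (at most 0.0725, with the same array absent). Mpeg1 also fell in low relative to medium (log2 difference -0.94, adjusted p = 0.00417).

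Cebpb was highest in Ly6C high and lowest in Ly6C low. It measured 9.92, 10.12 and 10.09 on the low arrays, 10.41, 10.51 and 10.36 on the medium arrays and 10.85, 10.73 and 10.52 on the high arrays. No gate overlapped another, and the nearest arrays, the brightest medium and the dimmest high, were 10.51 and 10.52. The means were 10.05 ± 0.11, 10.43 ± 0.08 and 10.70 ± 0.17 (SD, n = 3 each). Cebpb fell by 0.65 on the log2 scale in low relative to high (95% interval -0.91 to -0.40, adjusted p = 0.0128). This call was lost without low replicate 1 (adjusted p = 0.0521) and held without each other array. The differences of -0.38 between low and medium (adjusted p = 0.147) and -0.27 between medium and high (adjusted p = 0.624) did not pass. Medium lay 41.6% of the way from high to low.

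The other C/EBP genes were not called in any comparison. Cebpa, which drives the first steps of granulocyte and monocyte formation, averaged 8.15, 8.03 and 7.95 in low, medium and high. Cebpd, which is induced in acute inflammation, averaged 5.96, 6.41 and 6.71, a log2 difference of -0.75 between low and high (adjusted p = 0.148). Among 10 genes linked to C/EBPβ in macrophages, 0 were higher and 2 were lower in low than in high. Over all genes, 3.35% were higher and 2.32% lower, and 13.8% of those with a mean of at least 6 were called. The median log2 difference of the 10 was -0.59, against 0.01 over all genes. The lower genes were Cd14, the co-receptor for endotoxin (-0.76, adjusted p = 0.0342), and Saa3, an acute phase protein (-2.40, adjusted p = 0.0493). When single arrays were left out, Cd14 missed the threshold in 8 of 9 fits (adjusted p at most 0.109, with high replicate 3 absent) and Saa3 in 7 (at most 0.162, with low replicate 2 absent). Il6 averaged 7.61, 8.53 and 9.77 in low, medium and high, with an adjusted p of 0.123 between low and high. It ranged from 9.20 to 10.71 among the high arrays. Arg1, an arginase gene under C/EBPβ control in macrophages, averaged 9.85, 11.01 and 10.22 in low, medium and high, and low versus high had an adjusted p of 0.521. The fibroblast and classical monocyte sums given above, like Cebpb, were highest in Ly6C high. Within that gate the fibroblast sums of replicates 1, 2 and 3 were 7182, 5043 and 3203, and the classical monocyte sums 20488, 20558 and 21671. Cebpb was at 10.85, 10.73 and 10.52 on the same arrays. The part of these markers in the Cebpb difference was not tested.

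Maf had the largest difference of the 9 factors. Its brightest probe set gave 10.68, 10.31 and 10.39 on the Ly6C low arrays, 9.61, 9.56 and 9.49 on the medium arrays and 9.47, 8.72 and 9.08 on the high arrays. The 3 gates did not overlap, and the high arrays spread most. Means were 10.46 ± 0.19 in low, 9.55 ± 0.06 in medium and 9.09 ± 0.38 in high (SD, n = 3 each). Maf rose by 1.37 in low relative to high (95% interval 0.96 to 1.78, adjusted p = 0.00363), and this call held without each of the 9 arrays in turn. It rose by 0.91 in low relative to medium (0.50 to 1.32, adjusted p = 0.0443). That second call ended in 7 of the 9 fits that left out an array (adjusted p at most 0.153, with low replicate 1 absent) and held in those without high replicate 1 or 2. Medium and high differed by 0.46, which did not pass (adjusted p = 0.583), and medium lay 33.7% of the way from high to low.

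A second, dimmer probe set for Maf gave the same order. It read 7.98, 8.01 and 7.76 in Ly6C low, 6.87, 7.37 and 6.93 in medium and 6.49, 6.64 and 6.76 in high, again without overlap. In a fit over all 23521 single-symbol probe sets it was higher in low than in high by 1.29 (95% interval 0.95 to 1.63, adjusted p = 0.00222) and in low than in medium by 0.86 (adjusted p = 0.0281). The high arrays, which spread over 0.75 with the first probe set, lay within 0.26 of each other here. Of the measured relatives Mafa, Maff, Mafg, Mafk and Nrl, none was called in any of the 3 comparisons. Mafg, a small MAF protein that pairs with stress response factors, averaged 6.80, 7.22 and 7.51 in low, medium and high (adjusted p = 0.215 for low versus high).

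Most macrophage genes listed with Maf were higher in Ly6C low. Of 14, 12 were higher in Ly6C low than in Ly6C high and 0 were lower, beside 3.35% and 2.32% of all genes. Their median log2 difference was 2.11, against 0.01 over all genes. Against Ly6C medium, 8 were higher and 0 lower, beside 1.38% and 0.541% of all genes, with a median of 1.23 against -0.02. Of these 8 calls, those of Cd163, Stab1 and Vsig4 held whichever array was left out. Lyve1 missed the threshold in 7 of those 9 fits (at most 0.137), Gas6 and Mrc1 in 6 (at most 0.138 and 0.125), C1qa in 5 (at most 0.0964, with medium replicate 3 absent) and Timd4 in 3 (at most 0.0781, with low replicate 2 absent). For Lyve1, Gas6 and Mrc1 the highest value came without low replicate 1. Between low and high, C1qb missed it in 7 fits (at most 0.120, with low replicate 1 absent), Gas6 in 3 and C1qc in 1, and the other 9 held. The list was drawn up knowing that resident macrophage genes rise in Ly6C low in these data, so its direction is no independent evidence. Vsig4, a complement receptor, was at 7.63, 7.30 and 7.87 on the low arrays, 4.64, 4.63 and 3.68 on the medium arrays and 2.97, 3.08 and 3.15 on the high arrays. The log2 differences between low and high were 4.53 for Vsig4 (adjusted p = 0.000105), 4.28 for the hyaluronan receptor gene Lyve1 (0.00181), 4.05 for the haemoglobin scavenger receptor gene Cd163 (9.98e-05) and 3.44 for Timd4, which encodes a receptor for dying cells (0.00143). C1qa, which encodes a chain of the complement protein C1q, was at 11.07, 11.10 and 10.90 on the low arrays, 9.97, 9.97 and 9.75 on the medium arrays and 9.92, 9.65 and 9.11 on the high arrays. It rose by 1.46 in low relative to high (adjusted p = 0.00313). Il10, a cytokine gene that MAF is known to activate, was not called. It averaged 9.74, 10.13 and 9.94 in low, medium and high (adjusted p = 0.912 between low and high), and replicate 3 was the brightest array in every gate (10.37, 11.06 and 10.80). F13a1, the gene of a clotting factor subunit, averaged 10.99, 10.49 and 10.11 (adjusted p = 0.0541 for low versus high). All 8 resident macrophage markers summed above are among these 14 genes, so the 2 lists are not separate observations. The sums of those markers moved with Maf, and their part in the Maf difference was not tested.

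**Figure D2:**
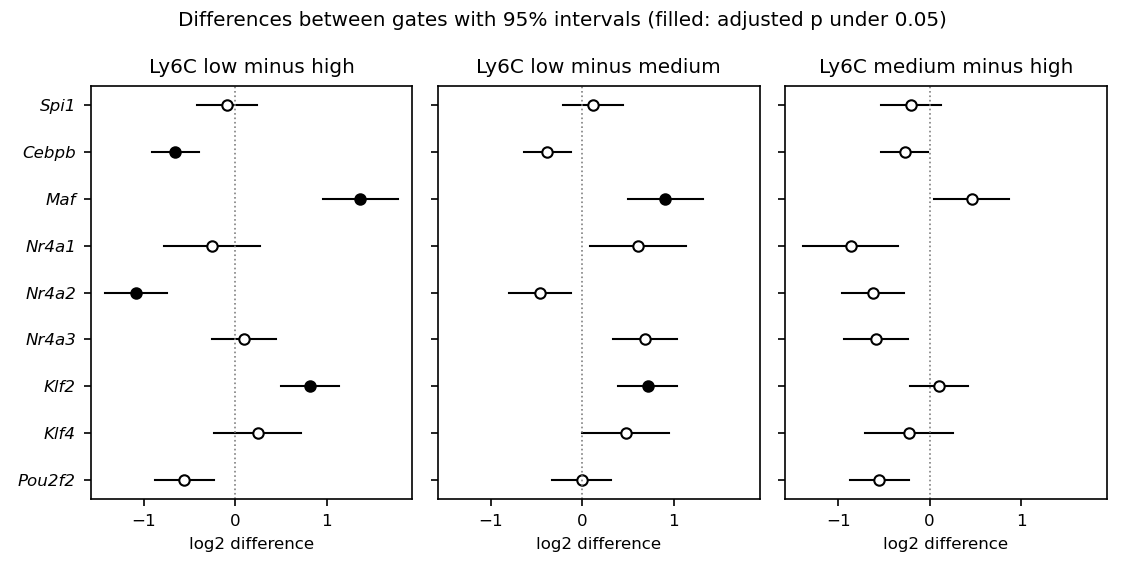
Log2 differences of the 9 factor genes are plotted for Ly6C low minus high, low minus medium and medium minus high, with unadjusted 95% intervals from the limma fit, and filled points have an adjusted p under 0.05. Maf (1.37) and Klf2 (0.82) lie to the right and Nr4a2 (-1.09) and Cebpb (-0.65) to the left in low minus high, and no point is filled in medium minus high.

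All 3 NR4A genes were lower in Ly6C medium than in Ly6C high on every array, by log2 differences of -0.86 for Nr4a1, -0.62 for Nr4a2 and -0.59 for Nr4a3, none of which passed. Nr4a2 fell in Ly6C low relative to high, while Nr4a1 and Nr4a3 overlapped between those gates. The difference between the genes was not tested. Nr4a2 was at 8.37, 8.70 and 8.64 on the low arrays, 8.81, 9.02 and 9.27 on the medium arrays and 9.53, 9.60 and 9.83 on the high arrays. The 3 gates did not overlap and were in the order low, medium, high. Nr4a2 fell by 1.09 on the log2 scale in low relative to high (95% interval -1.42 to -0.75, adjusted p = 0.00419), and the call held whichever array was left out. Medium lay 57.1% of the way from high to low, and neither the difference of -0.47 between low and medium (adjusted p = 0.182) nor that of -0.62 between medium and high (adjusted p = 0.272) passed. Within Ly6C high, Nr4a2 was brightest on replicate 3, the array with the lowest fibroblast sum of that gate. The part of fibroblast RNA in its difference was not tested.

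Nr4a1, the receptor tied to Ly6C low blood monocytes, had the largest SD within a gate of the 9 factors, in Ly6C low. It measured 10.02, 9.26 and 9.37 in Ly6C low, 9.23, 8.57 and 9.02 in medium and 9.88, 9.95 and 9.59 in high. Low replicate 1 stood above every high array, while the medium arrays all lay below the other 2 gates. The means were 9.55 ± 0.41, 8.94 ± 0.34 and 9.81 ± 0.19 (SD, n = 3 each). None of its comparisons passed. The difference was -0.26 between low and high (95% interval -0.78 to 0.27, adjusted p = 0.681) and 0.61 between low and medium (0.08 to 1.13, adjusted p = 0.268). Between medium and high it was -0.86 (-1.39 to -0.34, adjusted p = 0.339). Markers of the Ly6C low blood monocytes, given above, went both ways between low and high. Their part in the Nr4a1 signal was not tested.

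Nr4a3, the third receptor of the family, was at 8.99, 9.33 and 9.25 in Ly6C low, 8.23, 8.61 and 8.67 in medium and 8.89, 9.18 and 9.20 in high. Its medium arrays also lay below every array of the other gates. Low and high overlapped and differed by 0.10 (95% interval -0.25 to 0.45, adjusted p = 0.851), a value that turned to -0.0041 without high replicate 1. The difference of 0.69 between low and medium did not pass (0.34 to 1.04, adjusted p = 0.0642). It passed in 4 of 19 alternatives, among them quantile normalization repeated (adjusted p = 0.0453) and 2 filters on dim genes (0.0468 and 0.0335). In all 9 fits that left out an array it missed the threshold (at most 0.193, with low replicate 2 absent). Between medium and high the difference was -0.59 (-0.94 to -0.24, adjusted p = 0.329).

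Ratios of the receptors were also taken within each array. The log2 ratio of Nr4a3 to Nr4a2 was 0.62, 0.63 and 0.61 on the Ly6C low arrays, -0.59, -0.40 and -0.60 on the medium arrays and -0.64, -0.41 and -0.63 on the high arrays. Low stood apart from both other gates, which overlapped. Because the probe sets differ in brightness, the zero of this ratio has no meaning and only its shift between gates can be read. The log2 ratio of Nr4a1 to Nr4a2 was 1.65, 0.56 and 0.73 on the low arrays. It was 0.42, -0.45 and -0.25 on the medium arrays and 0.35, 0.36 and -0.24 on the high arrays. Here too low stood apart from both other gates, which overlapped. The log2 ratio of Nr4a3 to Nr4a1 overlapped between the gates, averaging -0.36 ± 0.59 in low, -0.44 ± 0.53 in medium and -0.71 ± 0.30 in high (SD, n = 3 each). These ratios were chosen after the values were seen and carry no test.

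**Figure D3:**
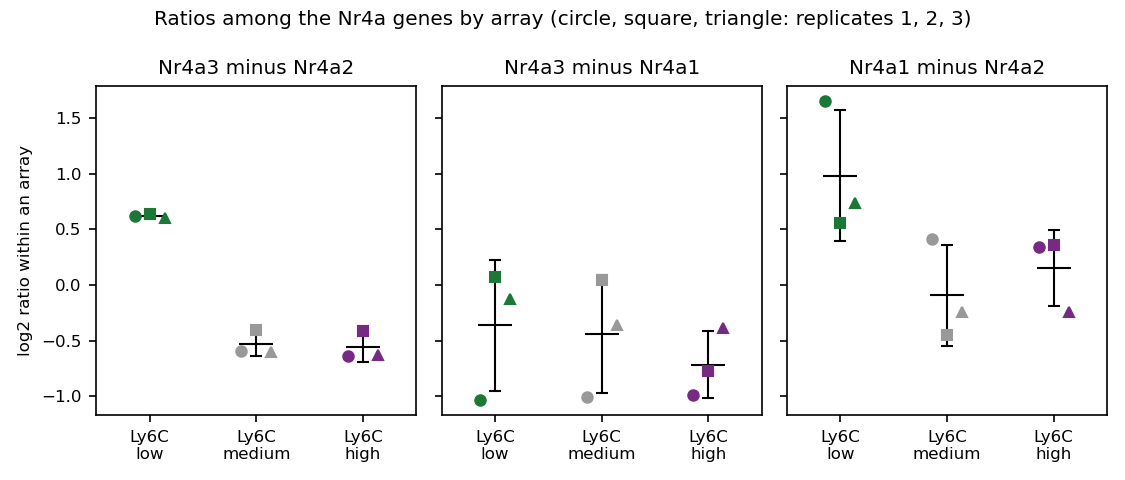
The log2 ratio between 2 Nr4a genes on the same array is plotted by gate for the 3 pairs, with the mean and SD of 3 arrays as a bar. The ratio of Nr4a3 to Nr4a2 lies between 0.61 and 0.63 on the Ly6C low arrays and between -0.64 and -0.40 on all other arrays. The ratio of Nr4a1 to Nr4a2 lies between 0.56 and 1.65 on the low arrays and between -0.45 and 0.42 on all others. The ratio of Nr4a3 to Nr4a1 overlaps among the gates.

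The promoters of the NR4A genes are shown because these genes share a well known mode of induction while their levels differed here. Transcription of the family is induced through cyclic AMP and the factor CREB, which binds the half-site TGACG. The windows run from 250 bases before to 50 after the annotated start, from RefSeq on GRCm38.p6, and 7 of the 9 factors matched the promoter table. Capitals mark TGACG read on either strand, so that CGTCA marks the opposite strand. Cebpb and Klf2 are shown beside them as called factors.
Nr4a1, chr15:101266596-101266895, plus strand: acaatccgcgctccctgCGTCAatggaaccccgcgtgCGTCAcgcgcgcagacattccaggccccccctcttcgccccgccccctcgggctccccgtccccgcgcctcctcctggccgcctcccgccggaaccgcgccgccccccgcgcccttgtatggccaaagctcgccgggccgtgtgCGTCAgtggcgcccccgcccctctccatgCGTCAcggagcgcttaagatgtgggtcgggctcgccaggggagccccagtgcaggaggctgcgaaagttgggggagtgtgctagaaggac
Nr4a2, chr2:57123954-57124253, minus strand: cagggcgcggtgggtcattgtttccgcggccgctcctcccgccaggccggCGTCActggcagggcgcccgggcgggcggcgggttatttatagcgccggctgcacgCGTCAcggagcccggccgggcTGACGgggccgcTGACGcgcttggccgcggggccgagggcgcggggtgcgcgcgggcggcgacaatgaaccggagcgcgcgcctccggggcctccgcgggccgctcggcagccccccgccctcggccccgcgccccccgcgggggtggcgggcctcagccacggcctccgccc
Nr4a3, chr4:48045055-48045354, plus strand: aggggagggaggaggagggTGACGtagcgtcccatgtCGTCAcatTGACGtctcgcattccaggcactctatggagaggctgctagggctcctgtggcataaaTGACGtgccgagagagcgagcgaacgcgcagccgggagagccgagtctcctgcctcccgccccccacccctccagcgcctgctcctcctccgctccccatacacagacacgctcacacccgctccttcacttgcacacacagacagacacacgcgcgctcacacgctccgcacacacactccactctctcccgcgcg
Cebpb, chr2:167688665-167688964, plus strand: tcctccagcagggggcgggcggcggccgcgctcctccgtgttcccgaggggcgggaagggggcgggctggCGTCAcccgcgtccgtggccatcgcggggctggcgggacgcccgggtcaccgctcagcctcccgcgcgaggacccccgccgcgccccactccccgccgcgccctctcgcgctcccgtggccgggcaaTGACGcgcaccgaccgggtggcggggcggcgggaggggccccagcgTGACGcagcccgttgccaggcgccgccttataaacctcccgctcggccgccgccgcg
Klf2, chr8:72318812-72319111, plus strand: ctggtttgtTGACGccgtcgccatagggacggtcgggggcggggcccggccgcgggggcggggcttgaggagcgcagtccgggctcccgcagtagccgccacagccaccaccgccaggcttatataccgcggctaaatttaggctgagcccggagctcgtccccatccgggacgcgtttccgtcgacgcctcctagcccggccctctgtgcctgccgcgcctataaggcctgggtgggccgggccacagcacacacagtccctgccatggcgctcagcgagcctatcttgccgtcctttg

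Each of the 3 NR4A promoters held 4 matches to TGACG, the Cebpb promoter 3, Klf2 and Klf4 1 each, and Pou2f2 0. Of 32851 promoter windows of this length, 20.8% held at least 1 match, 1.03% at least 3 and 0.231% at least 4. These windows are rich in G and C, from 64% in Pou2f2 to 81.7% in Nr4a2. Among the 9690 windows with at least 60% G and C, 31.6% held at least 1 match, 2.27% at least 3 and 0.557% at least 4. Nr4a2, called lower in Ly6C low, and Nr4a1 and Nr4a3, not called, held the same number of matches. The full site TGACGTCA was in none of the 7 windows and in 1.79% of all windows. The serum response element core, the CArG box, was searched only in its strict form, CC and GG around a run of A or T alone. That form was in none and in 1.63% of all, and forms with a mismatch were not searched. TATAAA was in the windows of Cebpb and Nr4a2 and in 13.6% of all. TTGCNNAA, a loose form of the C/EBP motif, was in none and in 10.8% of all, and GAGGAA, a core bound by PU.1, was in Pou2f2 alone among the 7 and in 28.3% of all. All were searched on both strands, and TGACGTCA, wherever present, also counts as TGACG.

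Other genes that are induced within minutes of a stimulus were read as a list of 19 measured immediate early genes. Between Ly6C low and Ly6C high, 1 was higher and 2 were lower, beside 5.67% of all genes called. The share was near the 13.8% called among genes with a mean of at least 6, though the list was not limited to those. The median log2 difference was -0.18. Egr1, a zinc finger factor, was at 9.14, 8.72 and 9.39 on the low arrays, 7.86, 7.42 and 8.22 on the medium arrays and 8.05, 7.93 and 8.23 on the high arrays. It was higher in low than in high by 1.01 (adjusted p = 0.0330), and missed the threshold in 6 of the 9 fits that left out an array (at most 0.109, with low replicate 1 absent). It was higher in low than in medium by 1.25 (adjusted p = 0.0299), and missed it in 5 of those fits (at most 0.111, with the same array absent). Fosl2, which encodes the AP-1 subunit FRA2, was at 9.19, 9.09 and 9.18 in low, 9.45, 9.03 and 9.44 in medium and 10.17, 9.94 and 10.11 in high. It was lower in low than in high by a log2 difference of -0.92 (adjusted p = 0.00499), and this held without each array in turn. The other lower gene, Ier3, differed by -0.35 (adjusted p = 0.0482), and missed the threshold in all 9 of those fits (at most 0.147). Between medium and high, limma called 0 of the 19 in either direction, against 0.239% of all genes. An unadjusted p under 0.05 was found for 6, against 7.53% of all genes. The median was -0.31, against 0.03 over all genes.

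Klf2 was higher in Ly6C low than in both other gates, which did not differ from each other beyond their spread. It was at 7.27, 7.44 and 7.58 on the low arrays, 6.72, 6.60 and 6.83 on the medium arrays and 6.84, 6.37 and 6.63 on the high arrays. The lowest low array stood above every other array, and medium and high overlapped. Means were 7.43 ± 0.15, 6.72 ± 0.12 and 6.61 ± 0.24 (SD, n = 3 each). Klf2 rose by 0.82 in low relative to high (95% interval 0.50 to 1.14, adjusted p = 0.0125), a call that held whichever array was left out (adjusted p at most 0.0474, with low replicate 2 absent). It rose by 0.71 in low relative to medium (0.39 to 1.03, adjusted p = 0.0428). This call ended in 7 of the 9 fits that left out an array (adjusted p at most 0.126, with low replicate 2 absent), with quantile normalization repeated (0.0518), with a trended and robust prior (0.0650) and with only these 2 gates in the fit (0.0536). Medium and high differed by 0.10 (-0.21 to 0.42, adjusted p = 0.896), and the sign turned without high replicate 2, at -0.02. Medium lay 12.8% of the way from high to low, beside 33.7% for Maf, a contrast that was not tested.

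Klf4, the relative of Klf2 that takes part in monocyte formation, was not called. It was at 9.03, 9.32 and 9.80 in Ly6C low, between 8.63 and 9.11 in medium and 9.38, 9.06 and 8.97 in high. The gates overlapped, and low had the widest spread (SD 0.39). Low differed from high by 0.25 (95% interval -0.23 to 0.72, adjusted p = 0.656) and from medium by 0.47 (adjusted p = 0.361). Medium differed from high by -0.23 (-0.70 to 0.25, adjusted p = 0.840). Of the 17 Krüppel-like factor genes measured, Klf2 was the only one called in any comparison. Klf6, an injury-induced member and bright in these cells, averaged 10.14, 10.33 and 10.27 in low, medium and high, and Klf3, a repressor, averaged 8.64, 8.74 and 9.20 (adjusted p = 0.0814 for low versus high).

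Genes of leukocyte traffic linked to KLF2 in lymphocytes and endothelium went both ways. Of 5 measured, 2 were higher in Ly6C low than in Ly6C high and 2 were lower. Over all genes, 3.35% were higher and 2.32% lower, and 13.8% of those with a mean of at least 6 were called. S1pr1, the receptor that guides lymphocytes out of lymphoid tissue and a target of KLF2 in T cells, was at 7.79, 7.45 and 7.07 in low, 6.79, 6.65 and 6.89 in medium and 6.23, 6.55 and 6.61 in high. It rose by 0.97 in low relative to high (adjusted p = 0.0178), and missed the threshold in 3 of the 9 fits that left out an array (at most 0.0635, with low replicate 2 absent). Thbd, the anticoagulant receptor thrombomodulin and a target of KLF2 in endothelium, was lower in low at 6.97, 7.46 and 7.42, against 9.01, 8.36 and 8.52 in high (-1.35, adjusted p = 0.00866). Itgb7, an integrin chain, had a log2 difference of -1.22 between low and high (adjusted p = 0.00587) and of -0.87 between low and medium (adjusted p = 0.0493). The second of these missed the threshold in 8 of the 9 fits that left out an array (at most 0.172, with low replicate 1 absent). Ccr3, the eotaxin receptor of eosinophils, was higher by 1.39 (adjusted p = 0.0141), which ended with low replicate 1 left out (0.0600). The sums of 5 eosinophil markers, Ccr3 among them, were 127 to 182 in low, 83.4 to 101 in medium and 63.8 to 78.0 in high, with Epx and Il5ra under 4 in all gates, and their part in the Ccr3 difference was not tested. Endothelial cells are rich in KLF2, and the summed intensity of 9 endothelial markers was 187 to 295 in Ly6C low, 233 to 240 in medium and 315 to 472 in high, with Tek, Tie1 and Esam under a log2 value of 4 in all gates. The dendritic cell and resident macrophage sums given above were highest in Ly6C low, as Klf2 was. So were the sums of 7 natural killer cell markers, at 403 to 612 in low, 189 to 242 in medium and 150 to 188 in high, with Ncr1, Klrb1c, Gzma and Eomes under 4 in all gates. The part of these cell types, and of endothelial RNA, in the Klf2 difference was not tested.

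Pou2f2 was the dimmest of the 9 and stood higher in Ly6C high on every array, without passing the test. It read 5.24, 5.46 and 5.48 in Ly6C low, 5.24, 5.48 and 5.48 in medium and 6.04, 5.67 and 6.13 in high. Low and medium overlapped almost fully, and neither overlapped with high. The difference between low and high was -0.56 (95% interval -0.88 to -0.23, adjusted p = 0.0590). It passed in 4 of 18 alternatives. These were quantile normalization repeated (0.0282), genes under the array median left out (0.0452), array weights (0.0423) and high replicate 2 left out (0.0284). It missed the threshold in 8 of the 9 fits that left out an array (at most 0.186, with low replicate 1 absent). With a trended and robust prior (0.0940) and with only these 2 gates in the fit (0.116) it also missed. Between medium and high the difference was -0.55 (adjusted p = 0.320), and between low and medium -0.01 (-0.33 to 0.32, adjusted p = 0.992). The deposited value was identical to the last digit on low replicate 3 and medium replicates 2 and 3, and again on low replicate 1 and medium replicate 1. Only low replicate 2 had a value of its own among these 6 arrays, so the difference between low and medium rests on repeated values. Such repeats occurred in 51.5% of all genes and in 2 of the 9 factors. Of 5 markers of B cells, the best known source of OCT2, Ms4a1 and Cr2 averaged under 4 in all gates and Cd79a in low and high. The sum over the 5 was 68.1 to 73.3 in low, 73.7 to 103 in medium and 63.9 to 76.9 in high. Pou2af1, the B cell coactivator of OCT2, averaged 3.35, 3.68 and 3.37 in low, medium and high. The part of B cells in the Pou2f2 signal was not tested.

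Other transcription factors of myeloid cells were read from a list of 36, of which 33 were measured. Between Ly6C low and Ly6C high, 2 were higher and 2 lower, beside 5.67% of all genes called. The share was near the 13.8% called among genes with a mean of at least 6, though the list was not limited to those. The median log2 difference was -0.14. In the same fit limma called 0 between medium and high, against 0.239% of all genes, and 1 between low and medium, against 1.93%. Between medium and high, 8 had an unadjusted p under 0.05, against 7.53% of all genes. Irf4, a factor of dendritic cells and of macrophages activated by interleukin 4, was at 6.53, 6.98 and 6.42 on the low arrays, 4.63, 4.66 and 4.80 on the medium arrays and 4.43, 4.47 and 5.12 on the high arrays. It rose by 1.97 relative to high (adjusted p = 0.00143) and by 1.95 relative to medium (adjusted p = 0.00417). As for Klf2, medium stood close to high. Bhlhe41, a repressor that takes part in the self-renewal of resident macrophages, was at 5.51, 6.01 and 5.14 in low, 4.60, 4.89 and 4.31 in medium and 4.13, 3.74 and 3.98 in high (1.60 for low minus high, adjusted p = 0.00506).

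Lower in Ly6C low than in Ly6C high were Runx3 and Tcf7l2. Runx3, a runt-domain factor, was at 6.45, 6.25 and 6.28 in low, 6.55, 6.81 and 6.63 in medium and 7.63, 7.24 and 7.40 in high (log2 difference -1.10, adjusted p = 0.00210). Tcf7l2, a nuclear partner of β-catenin, differed by -0.99 (adjusted p = 0.0424), and missed the threshold in 7 of the 9 fits that left out an array (at most 0.142, with low replicate 2 absent). Irf8, which PU.1 pairs with in monocyte progenitors, averaged 7.91, 8.58 and 8.31 in low, medium and high and was not called (adjusted p = 0.407 for low versus high). Gata6, the factor of peritoneal macrophages, was near the floor at 2.98, 2.90 and 3.18.

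**Figure D4:**
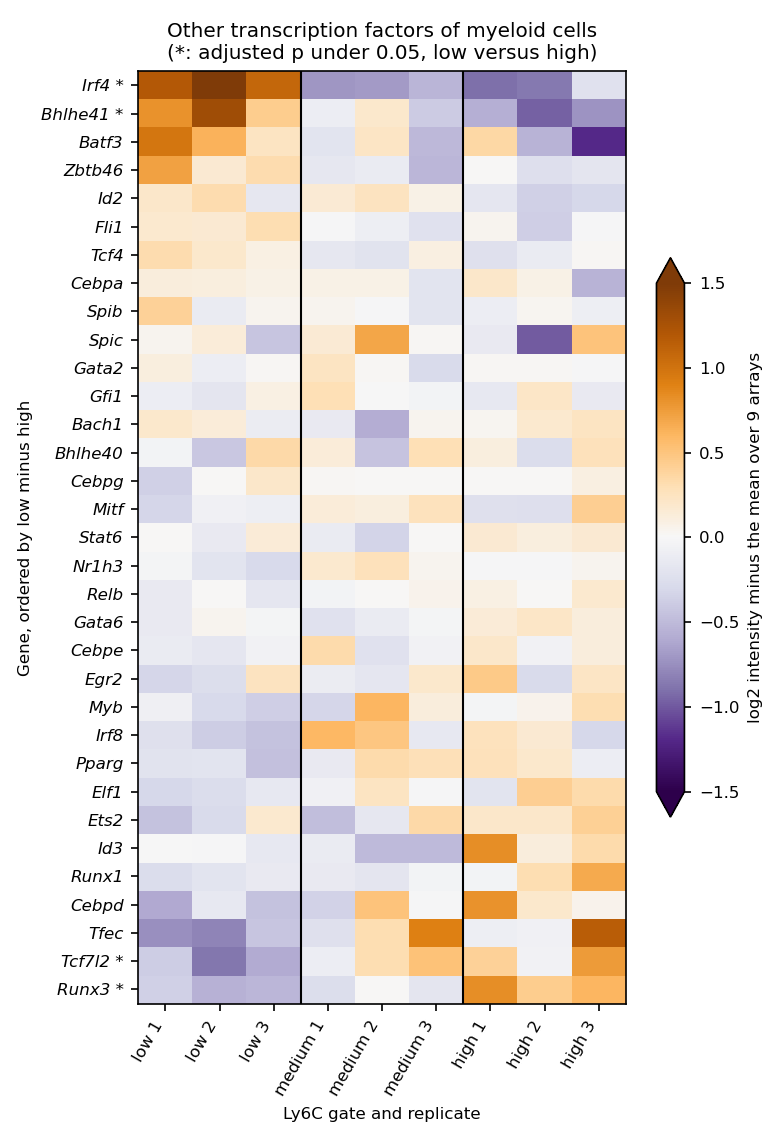
Each row is one of 33 other myeloid transcription factor genes and each column an array, coloured by log2 intensity minus the mean of that gene over the 9 arrays, with rows in the order of their low minus high difference. Irf4 and Bhlhe41 at the top are brightest in Ly6C low, and Runx3 and Tcf7l2 at the bottom are brightest in Ly6C high and carry a star, as do the first pair.

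For each called factor the 5 genes with the most similar pattern over the 9 arrays were found among 2218 genes with a mean of at least 6 and a range of at least 1. Pearson correlation served as the measure, as a description. All points share the gates, and any gene that separates the gates in the same order will correlate. Nearest to Maf were Cct6a, a chaperonin subunit gene (r = 0.991), Slc13a3, a dicarboxylate transporter gene (0.990), and Atp6v0a1, a proton pump subunit gene (0.980), followed by Atp5a1 and Tbcd. Slc13a3 averaged 8.15, 6.06 and 4.97 in low, medium and high. Nearest to Klf2 were Ash2l, a subunit of histone methyltransferase complexes (0.977), and Gtpbp4 and Utp18, which serve ribosome assembly (0.976 and 0.973), then the dendritic cell genes Ccr7 and Ccl22 (0.970 and 0.964). Nearest to Cebpb were the interferon-induced genes Isg20 and Irf7 (both 0.953), with Fcgr1, Plac8 and Ms4a8a behind them. Irf7 averaged 8.56, 9.75 and 10.11. Nearest to Nr4a2 were Unc119b (0.985), Rnf217 (0.974) and Emb (0.964), then Atg9a, an autophagy gene, and Ms4a4a.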

How the data were processed

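RNA of sorted cells was amplified to cDNA and hybridised to Affymetrix arrays, per the labels' protocols. The values are log2 intensities per probe set that the authors deposited after RMA, per the submitters' processing notes, whose settings are not given in the sources used here. RMA equalises the arrays' distributions, so a shift shared by most genes would not show. Of 41345 probe sets, 23521 carried a single symbol, 1814 carried more than one, and the table used here did not list 16010. The brightest probe set stood for each of 22180 genes, with no filter. Depth is not a count on arrays, and 3 arrays per gate limit the precision.

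All 9 arrays entered a single fit in R 4.3.3 with limma 3.58.1 (lmFit, eBayes, two-sided, 6 residual degrees of freedom), with Benjamini-Hochberg adjustment over all genes. Intervals are unadjusted.

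The members, lists and alternatives were chosen with earlier results of these data known. All 9 factors are named, from each list up to 4 called genes and relatives or list members of known role, and for each called factor the 5 most correlated genes, predicted gene models left out. C1qa and the list members named with no call were picked after their values were seen. The labels pair no samples, and the fit has no replicate block. Alternatives were quantile normalization repeated, centred arrays, the mean of all probe sets, 2 filters on dim genes, a trended and robust prior, array weights, a replicate block, only the gates compared, and leaving out each array.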

Additional observations from a re-analysis of the deposited data

How the results depend on the processing

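With each array left out in turn, the number of factors called was 3 to 5 between Ly6C low and high, 0 to 2 between low and medium, 0 between medium and high, and 2 to 4 by the F test. Maf, Nr4a2 and Klf2 were called between low and high under all 19 alternatives, and Cebpb under 18. Between low and medium, 1 factor was called with a trended and robust prior and 1 with only the 2 gates compared, against 2 as reported. Whether the replicate numbers pair samples is not given by the labels. Deviations from the gate means correlated at -0.0166 to 0.309 between same-numbered arrays, and not every array correlated best with its own number, though each low array did so among the medium arrays. With the numbers as a fixed replicate block, the counts were 4, 3 and 0 for low versus high, low versus medium and medium versus high, Nr4a3 being added in low versus medium (adjusted p = 0.0164), and over all genes 1564, 629 and 61, against 1258, 427 and 53. As a random replicate block they changed no count of factors. With only the 2 gates in the fit, 644, 211 and 1 of all genes were called. With each array left out in turn, 596 to 1243, 119 to 522 and 2 to 72 of all genes were called, and by the F test 342 to 827, against 888 with all arrays.

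Signs turned only for differences that were not called. Spi1 between low and high was 0.0179 with quantile normalization repeated, and Pou2f2 between low and medium was 0.00646 with arrays centred. With single arrays left out, Spi1 ran from -0.190 to 0.0258 and Nr4a3 from -0.0041 to 0.195 between low and high, Pou2f2 from -0.0852 to 0.0693 between low and medium, and Klf2 from -0.0177 to 0.217 between medium and high. The cause of these changes was not tested. Pou2f2 gave no value with the filter at a log2 value of 6.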
